A study of Mus musculus with 6 samples.

Results

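Dermal fibroblasts, mouse skin cells that make collagen and other matrix, were compared 1 h after the addition of interleukin-1 (IL-1) with the same kind of cells left untreated. The comparison rests on 2 of the 6 Agilent 2-colour arrays of the series, chosen because their labels give 1 h of IL-1 for the treated channel. The other arrays hold the 2 h and 4 h treatments, with 2 arrays each. The cells came from C57BL/6 mice, grew in DMEM with antibiotics and 10% FBS, and received IL-1 at 20 ng/ml. The form of IL-1, the number of mice and the passage of the cells were not given in the sources used here. The untreated cells (0 h) are the control on every array, and no group carries a further allele or agent beyond the serum and antibiotics that all share.

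On the first 1 h array the treated RNA carried Cy5 and the untreated RNA Cy3, and on the second the dyes were exchanged. The design describes the duplicate as a dye swap, so both arrays were taken as 1 sample. No test of 1 h against untreated was therefore possible. A gene was counted as different by size alone, when its log2 ratio of treated over untreated was at least 1, or at most -1, on each of the 2 arrays. The value given is the mean of both arrays. Its error is written with ± and is 0.5 times the distance between them, a technical error that holds the dye effect of the gene and leaves out any spread between cultures. Cell number and RNA per cell cannot be told apart in such bulk samples.

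IL-1 binds the receptor Il1r1, which recruits Il1rap, Myd88 and the Irak kinases and passes the signal through Traf6 to the IKK and MAP kinases. IKK frees NF-kB dimers from their IkB inhibitors, and the dimers then bind promoters and enhancers of inflammatory genes. Many of the first targets are regulators that later shut the pathway down, among them the IkB proteins and Tnfaip3 (A20). Serum response factor and AP-1, driven by MAP kinases, control a further set of rapid genes, the immediate early genes. In skin, IL-1 released from keratinocytes is known to make fibroblasts secrete chemokines that draw neutrophils and monocytes.

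After filtering, 22209 genes were measured, 15454 of them with a symbol in the RefSeq gene table. Median signals on the 1 h arrays were 132.6 for treated RNA and 127.5 for untreated RNA with treated in Cy5, and 127 and 137.7 with the dyes exchanged, against medians of 73.4 to 104.4 for the negative control spots of the same arrays. Over all genes the median of this error was 0.0656 and its 95th percentile 0.206. All 12 fibroblast markers on the list, Col1a1, Pdgfra and Thy1 among them, were well above background in the untreated channel of both arrays, and their log2 ratios at 1 h ran from -0.21 to 0.30. Of the markers of other skin cells on the array, 5 of 7 keratinocyte, 4 of 6 endothelial, 5 of 7 macrophage and 4 of 5 mast cell markers were too. So were 4 of 5 T cell, 2 of 6 melanocyte, 2 of 5 adipocyte, 6 of 6 pericyte and 5 of 5 Schwann cell markers. Among those that were not are Pecam1, Cdh5, Itgam, Cd163, Epcam, Cdh1, Lck, Tyr, Adipoq and Lep. The software's flag for signal above background is permissive, since up to 14.3% of the negative controls carried it in 1 channel. Against the 99th percentile of the negative controls in the untreated Cy3 channel, 12 of 12 fibroblast, 3 of 7 keratinocyte, 2 of 6 endothelial, 3 of 7 macrophage, 1 of 5 mast cell, 2 of 5 T cell, 0 of 6 melanocyte, 2 of 5 adipocyte, 4 of 6 pericyte and 4 of 5 Schwann cell markers on the array were brighter. The lysozyme gene Lyz2 was the brightest of the macrophage markers, with a log2 ratio of 0.088. Over all these lists the log2 ratios at 1 h lay between -0.33 (Mbp) and 0.30 (Fn1).

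The dyes in the labels give the direction of every ratio. In the authors' deposited value table, the column of 1 array matches the treated to untreated log2 ratio computed from the processed signals of its dye-swap partner, for 100% of spots within 0.001, so either the table's columns or the scanner files are exchanged within each pair. If the scanner files are exchanged, every sign given here turns.

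At 1 h, 47 genes were at least 2-fold higher on both arrays and 2 were at least 2-fold lower, which is 0.212% and 0.00901% of the measured genes. The log2 ratio was within 0.25 of no change for 96% of all genes. Most of the higher genes encode chemokines, cytokines, parts of the NF-kB pathway or rapid transcription factors. When loess was replaced by centring each array on its median, 24 genes were higher, 23 of them among the 47, and 0 were lower. The higher genes lost in this way had median-centred means from 0.94 (Csf1) to 1.70 (Ier3). Zfp503 and Id4, the 2 lower genes, kept means of -1.31 and -1.23 but did not pass on each array.

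**Figure D1:**
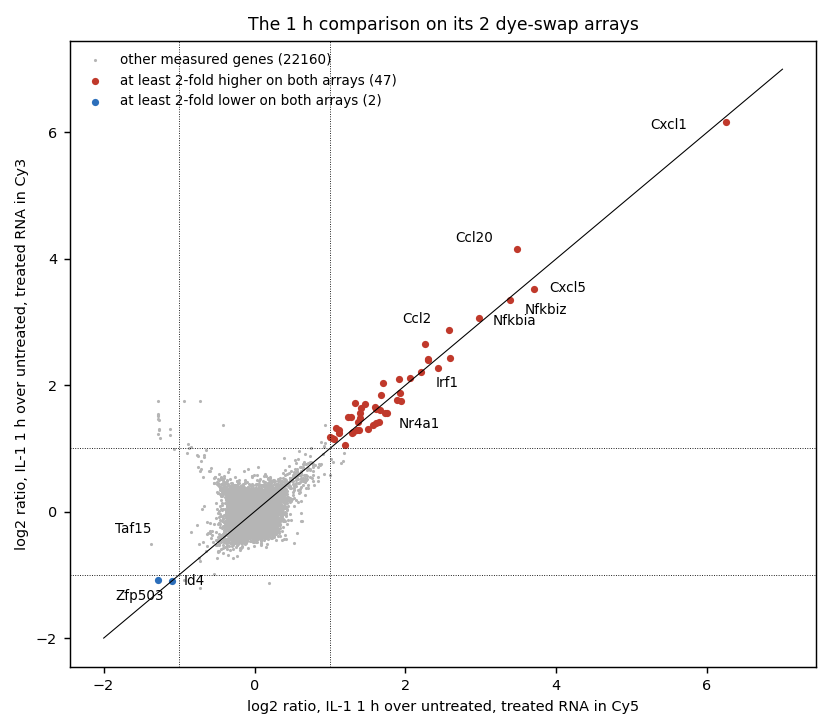
Log2 ratio of IL-1 1 h over untreated for each of the 22209 measured genes, with treated RNA in Cy5 on the horizontal axis and in Cy3 on the vertical axis; dotted lines mark 2-fold and the solid line equal values. The 47 higher genes lie along the solid line up to Cxcl1 at 6.21, and a group of grey points at the upper left is low on one array and high on the other.

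The promoters of the higher genes were read first, because NF-kB motifs close to the start are a known feature of rapid inflammatory genes. RefSeq's promoter table (GRCm38.p6) had an entry for 33 of the 47 higher genes, with 40 promoters in all, and for both lower genes. The 250 bases before the start were searched on both strands for the decameric NF-kB consensus. A match stood in 16 of the 33 higher genes (48.5%), against 1235 of 12305 measured genes with an entry (10%) and 8.23% of all genes in the table. In neither lower gene was there a match. Matches can overlap by all but 1 base, as where both strands match within the same letters, and a gene counts once. The stretches shown are from 4 of the chemokines, the cytokine Il6, NF-kB inhibitors and the receptor Tlr2. Capitals mark the matched bases, and the flanks are 25 bases unless the start comes sooner. Each is written in the direction of its gene, and all end before the start of transcription. Cxcl1 lies at chr5:90891149-90891209 (+), Cxcl2 at chr5:90903777-90903837 (+), Cxcl3 at chr5:90786003-90786063 (+), Ccl20 at chr1:83116661-83116720 (+), Il6 at chr5:30013045-30013104 (+), Nfkbia at chr12:55492648-55492701 (-), Tnfaip3 at chr10:19015411-19015447 (-) and Tlr2 at chr3:83841746-83841806 (-).
Cxcl1: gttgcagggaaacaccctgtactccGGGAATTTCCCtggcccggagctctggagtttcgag
Cxcl2: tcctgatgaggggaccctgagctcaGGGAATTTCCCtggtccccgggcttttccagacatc
Cxcl3: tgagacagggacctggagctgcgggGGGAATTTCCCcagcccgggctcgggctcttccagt
Ccl20: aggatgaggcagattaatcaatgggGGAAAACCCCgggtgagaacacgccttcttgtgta
Il6: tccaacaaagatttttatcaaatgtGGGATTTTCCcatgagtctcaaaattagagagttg
Nfkbia: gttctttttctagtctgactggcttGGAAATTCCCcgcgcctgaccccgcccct
Tnfaip3: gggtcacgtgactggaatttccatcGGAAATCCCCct
Tlr2: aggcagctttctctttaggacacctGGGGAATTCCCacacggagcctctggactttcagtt

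The nearby chemokine genes Cxcl1, Cxcl2 and Cxcl3 held the same 11 capital letters, 71, 97 and 73 bases before the start. The match of Il6 began 44 bases before its start, that of Nfkbia 29 and that of Tnfaip3 12 bases before. Other genes with a match include Irf1, Cxcl10, Nfkbie, Ier3, Csf1, Tnfaip2, Serpina3g and 1 of the promoters of Egr2. A match is a description of these letters, not a measured binding site. The 14 higher genes without an entry were not searched.

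Other motifs were counted in the same way. The serum-response CArG box was found in 1 of the 33 higher genes, Egr2 (3.03%), against 1.45% of measured genes. The cyclic-AMP element TGACGTCA stood in 2, Errfi1 and Ch25h (6.06% against 2.62%), and the AP-1 motif TGANTCA in 5 (15.2% against 6.76%). TATAAA, read on the gene's strand only, was in 6 (18.2% against 7.25%), and GGGCGG, a GC box, in 23 (69.7% against 54.6%). Egr2 had 4 promoters with a CArG box, which reads CCTTTTTTGG in the 1 shown and CCATATATGG in the others. The stretch of Egr2 with a CArG box in capitals lies at chr10:67537469-67537528 (+), and that of Errfi1 with its cyclic-AMP element at chr4:150854994-150855051 (+).
Egr2: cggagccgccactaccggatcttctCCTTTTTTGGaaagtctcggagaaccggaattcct
Errfi1: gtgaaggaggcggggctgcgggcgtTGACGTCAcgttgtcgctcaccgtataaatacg

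The 45 higher genes with a RefSeq span had a median length of 6862 bp from start to end, introns included. The median over 15454 measured genes was 19232 bp. Spans under 10000 bp made up 64.4% of the higher genes and 32.2% of all. Zfp503 and Id4, the lower genes, spanned 4913 to 5643 bp. Several higher genes lie near each other on their chromosome. Cxcl5, Cxcl3, Cxcl1 and Cxcl2 follow in this order with gaps of 24476, 103152 and 10778 bp. The gap was 8260 bp between Ccl2 and Ccl7, 146008 bp between Fas and Ch25h and 179024 bp between Relb and Bcl3. Irf1 and Csf2 stood 468896 bp apart. Genes that did not pass the size rule may lie in these gaps.

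**Figure D2:**
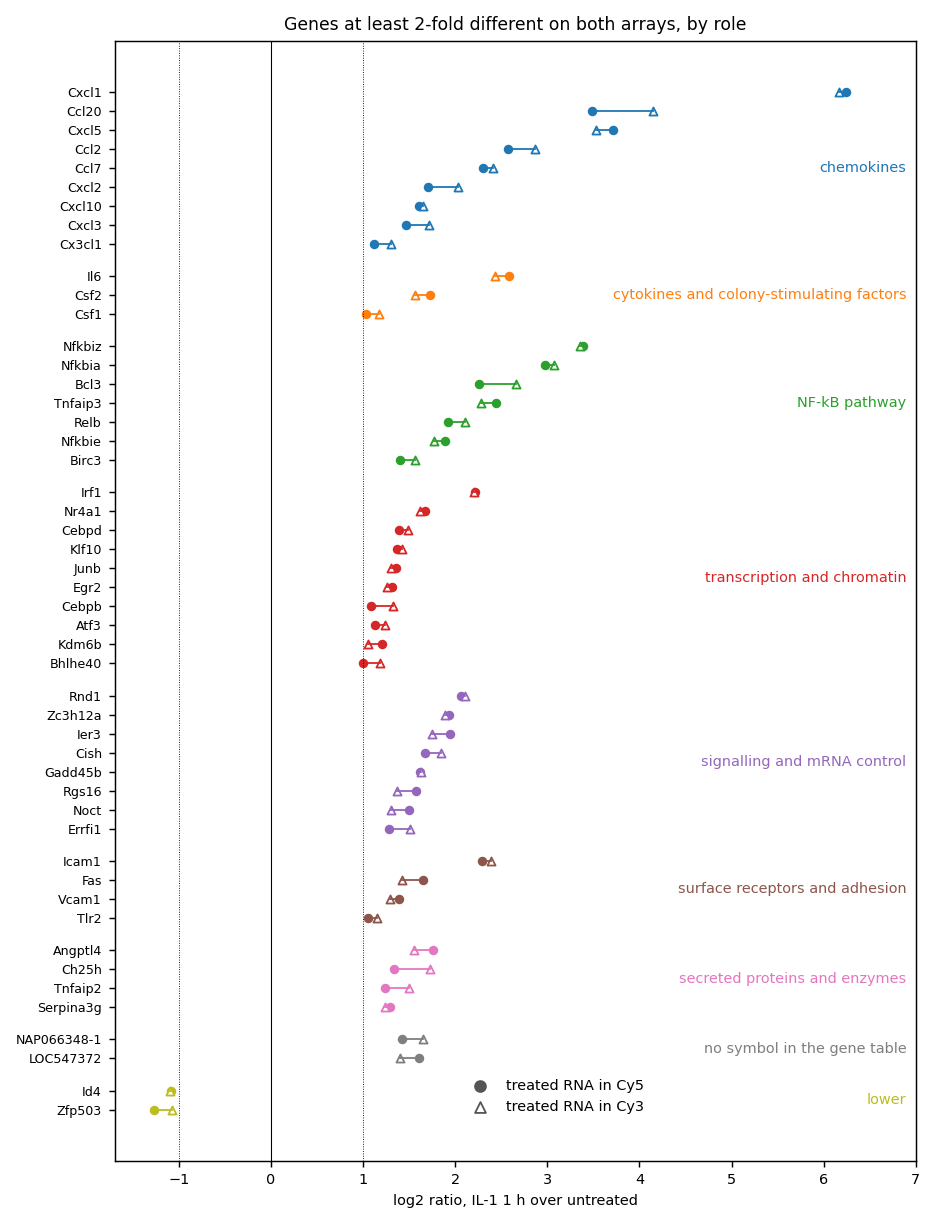
Log2 ratio of IL-1 1 h over untreated for the 47 higher and 2 lower genes, ordered by role; circles are the array with treated RNA in Cy5, triangles the array with treated RNA in Cy3, and a line joins both. Chemokines span 1.21 to 6.21 as means, and the longest line is that of Ccl20.

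Chemokines, small secreted attractants of leukocytes, held the 3 highest single values of the whole comparison. Of 21 measured chemokines, 9 were at least 2-fold higher on both arrays, against 0.212% of all genes. Their list median was 0.33, against 0.0033 over all genes. Cxcl1, a neutrophil attractant, had log2 ratios of 6.25 and 6.17 on the array with treated RNA in Cy5 and in Cy3, which is 6.21 ± 0.039 or 73.9-fold. The size depends on the background correction, and the scanner software's processed signals gave 6.82 or 112.9-fold. In the main values both arrays placed Cxcl1 above every other gene. At 2 h and 4 h, measured against the same kind of untreated RNA, it stood at 5.49 and 4.84.

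The neutrophil attractants near it on the chromosome followed other courses. Cxcl5 had 3.71 and 3.53 at 1 h, then means of 4.34 at 2 h and 4.71 at 4 h. Cxcl3 had 1.47 and 1.71, then 2.07 and 2.17. Cxcl2 had 1.70 and 2.03, then 0.93 and 0.38. So the 4 nearby genes differed in where their highest mean lay, at 1 h for Cxcl1 and Cxcl2 and at 4 h for Cxcl5 and Cxcl3. For Cxcl3 the arrays disagreed between 2 h and 4 h. With treated RNA in Cy5 it had 1.87 and 2.26, and with treated RNA in Cy3 2.28 and 2.07. No test was made of these orders.

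Ccl20, which attracts Ccr6-bearing lymphocytes and dendritic cells, had 3.48 and 4.15, the widest distance among the 47 genes (± 0.33). Its means at 2 h and 4 h were 3.67 and 2.73. The monocyte attractants Ccl2, with 2.58 and 2.87, and Ccl7, with 2.30 and 2.41, stood at close values again later, 2.54 and 2.73 for Ccl2 and 2.32 and 2.34 for Ccl7. The treated spot of Ccl2 was saturated on 1 of the 2 arrays, so its ratio there is a lower limit. A second probe of Ccl7 gave 2.26 beside 2.36 of the brighter one.

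Cxcl10, which attracts activated T cells, had 1.60 and 1.65. Its untreated signal was well above background on 1 of the 2 arrays. Cx3cl1, a chemokine that also exists anchored in the membrane, had 1.12 and 1.30. The other 12 measured chemokines lay between -0.19 (Cxcl14) and 0.66 (Cxcl16). Cxcl12, the main constitutive chemokine of fibroblasts, was at -0.014 with a bright probe (mean log2 signal 10.1).

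Among cytokines and colony-stimulating factors, 3 of 26 measured members were higher, against 0.212% of all genes. The list median was 0.044, against 0.0033 over all genes. Il6, a cytokine that acts on liver and lymphocytes, had 2.59 and 2.44, and later means of 2.96 and 2.73. Csf2 (GM-CSF), which supports granulocytes and macrophages, had 1.73 and 1.56. Its untreated signal was not well above background on either array. Set against the lowest signal above background, Csf2 was at least 2.87-fold higher, and the size of its change is not known. Csf1 (M-CSF), the macrophage growth factor, had 1.03 and 1.17. Tnf at 0.078, Lif at -0.011 and Il11 at 0.26 stayed under the size rule, and the probe of Tnf was dim (mean log2 signal 6.44).

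All 4 measured subunits had log2 ratios of at least 0.5 on both arrays, a size that 0.581% of all genes reached upward. Relb, which pairs with p52 in the non-canonical branch, had 1.92 and 2.10 and alone passed 2-fold on both arrays. Nfkb2, the precursor of p52, had 0.92 and 1.04 and just missed. Nfkb1, the precursor of p50, was at 0.78, and Rela, the main activating subunit, at 0.66. At 4 h the means were 1.42 for Relb, 1.11 for Nfkb2, 1.04 for Nfkb1 and 0.40 for Rela.

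Of 13 measured IkB proteins and ubiquitin brakes of NF-kB, 5 were higher, against 0.212% of all genes. The list median was 0.50. Nfkbiz (IkB-zeta), a nuclear cofactor needed for part of the Il6-type genes, had 3.38 and 3.35 at 1 h, then 2.03 and 1.18 as means at 2 h and 4 h. Nfkbia (IkB-alpha), the inhibitor that retrieves NF-kB from the nucleus, had 2.97 and 3.07, then 2.65 and 1.87. Bcl3, a nuclear IkB protein that binds p50 and p52, had 2.26 and 2.66. Tnfaip3, the ubiquitin-editing brake A20, had 2.44 and 2.28, then 1.07 and 0.35. Nfkbie (IkB-epsilon) had 1.89 and 1.77. All of these had a lower mean at 4 h than at 1 h, the smallest at 4 h being that of Tnfaip3. Having been picked as high at 1 h by itself favours such a fall. Tnip1 and Nfkbib stood at 0.50, and Cyld, Rnf11, Otud7b, Nfkbid, Tax1bp1 and Tnip2 between -0.062 and 0.11.

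Counts of 2-fold genes upstream of NF-kB stand beside the 0.212% of all genes that were higher, and counts of 0 in lists of this length cannot be told from that share. None of 20 measured members of the receptor and its proximal adaptors was 2-fold higher, and the list median was 0.014. Il1rl1 (the IL-33 receptor) at 0.53 and Il1r1 (the signalling receptor for IL-1) at 0.45 were the highest, and Ube2n at -0.23 and Tab1 at -0.22 the lowest. Of 15 IKK kinases and TRAF adaptors, 1 was higher. This was Birc3 (cIAP2), a ubiquitin ligase of TNF receptor complexes, with 1.40 and 1.56; a second, dim probe named Birc3 in the files gave -0.0025. Ripk2, the kinase of Nod receptors, followed at 0.76. None of 17 MAP kinases and substrates was 2-fold higher or lower, the highest being Map2k3 at 0.39.

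**Figure D3:**
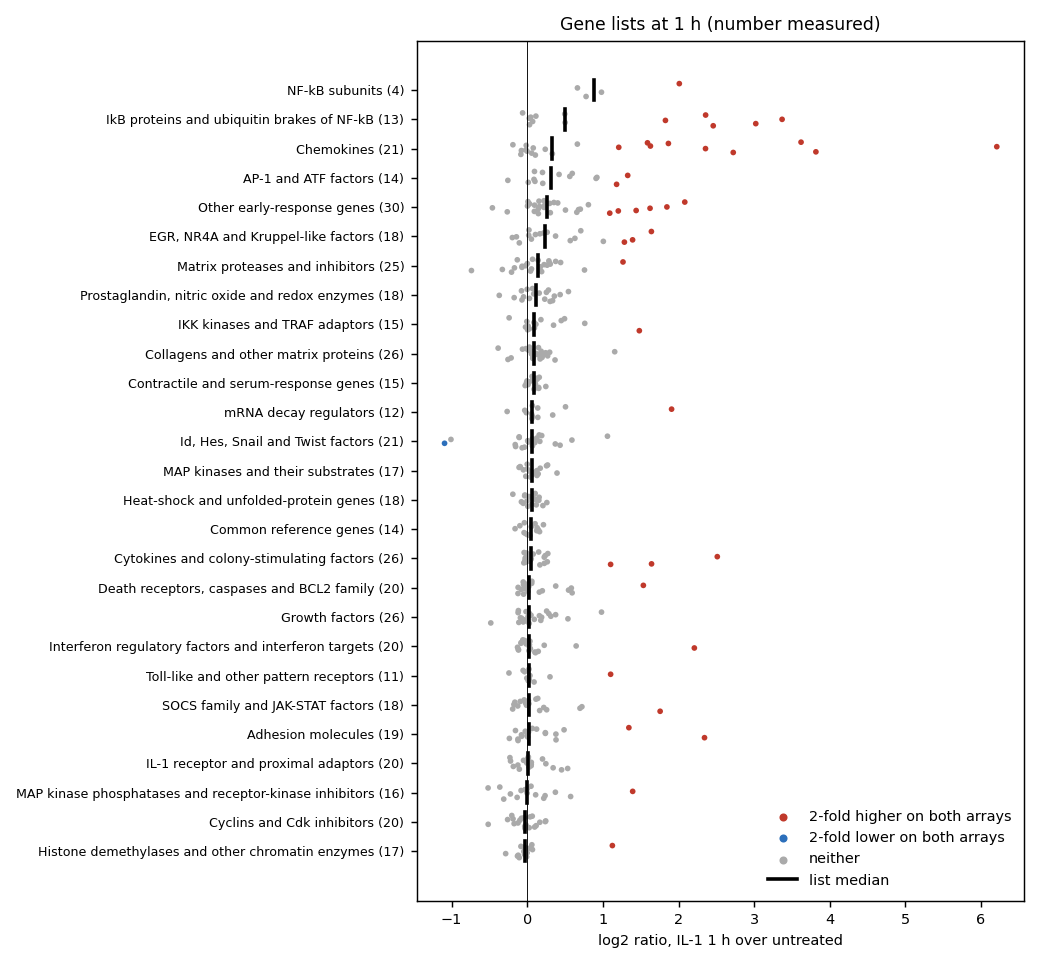
Log2 ratio of IL-1 1 h over untreated for every measured member of the 27 gene lists; points are genes, red where 2-fold higher and blue where 2-fold lower on both arrays, and the black bar is the list median. The list medians are highest for NF-kB subunits (0.88), IkB proteins and ubiquitin brakes (0.50), chemokines (0.33) and AP-1 and ATF factors (0.31), and lie between -0.035 and 0.26 for the others.

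Transcription factors and 1 chromatin enzyme made up 10 of the 47 higher genes. As a group they had a median of 1.31 at 1 h, 0.17 at 2 h and -0.057 at 4 h. The NF-kB group had 2.36, 2.03 and 1.18. Members of both groups were chosen as 2-fold higher at 1 h, which by itself favours lower values later. Irf1, an activator of interferon-type genes, had the same value of 2.21 on both arrays, with 1.17 from a dimmer second probe, and means of -0.18 at 2 h and -0.065 at 4 h. Of 20 measured interferon regulatory factors and interferon targets it alone was 2-fold higher, with Irf5 next at 0.65 and Ifit1, Ifit2, Isg15 and Mx1 between -0.12 and 0.022. The share over all genes was 0.212%, so 1 of 20 is no result about that list.

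Of 18 measured EGR, NR4A and Kruppel-like factors, 3 were higher, against 0.212% of all genes. Nr4a1 (Nur77), an orphan nuclear receptor of the immediate early class, had 1.67 and 1.61, with -0.90 and -0.53 as later means. Klf10, a zinc finger factor known from TGF-beta signalling, had 1.37 and 1.42, with -0.20 and -0.22 later. Egr2 had 1.31 and 1.26, with 0.049 and -0.46 later. Egr3 had 0.93 and 1.08 and just missed on 1 array. Egr1, the best-known member, was at -0.11 (0.019 and -0.23), with a probe of ample signal (mean log2 signal 9.39).

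Of 14 AP-1 and ATF factors, 2 were 2-fold higher and 6 had at least 0.5 on both arrays. Over all genes these shares were 0.212% and 0.581%. Junb, a partner of Fos proteins, had 1.36 and 1.30, and a second probe 1.18. Atf3, a stress-induced factor, had 1.12 and 1.24. The Fos-related factors Fosl2, with 1.01 and 0.83, and Fosl1, with 0.91 on both arrays, came close. Fos itself was at -0.26, from -0.49 and -0.027, on a dim probe (mean log2 signal 6.70), and a change of Fos cannot be told from none at this signal. Jun was at 0.56.

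Cebpd, which drives acute phase genes, had 1.39 and 1.49 and means of 2.08 at 2 h and 1.23 at 4 h. Cebpb had 1.09 and 1.32 and means of 1.17 at each later time; a second probe gave 0.96 at 1 h, just under the size rule. Bhlhe40, a repressor of the circadian clock family, had 1.00 and 1.18, then 0.080 and -0.12. Kdm6b, which removes the repressive H3K27 methyl mark, had 1.20 and 1.05, then 0.25 and -0.048, and alone of 17 chromatin enzymes passed. With 0.212% of all genes higher, 1 of 17 is no result about that list. Among other early-response genes, Myc at 0.0030, Ier2 at 0.22 and Zfp36 at 0.14 stayed near their untreated level with probes of mean log2 signal 10.9, 9.76 and 7.91.

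Genes that act on signalling and on mRNA formed a further group of 8. Rnd1, a small GTPase that loosens the actin skeleton, had 2.06 and 2.11; its 2 dimmer probes gave 0.12 and 0.015, so the call rests on the brightest probe. Zc3h12a (Regnase-1), an RNase that degrades Il6 mRNA, had 1.93 and 1.88. Ier3, a survival gene, had 1.94 and 1.75. Cish, an inhibitor of cytokine receptors, had 1.67 and 1.84, and alone of 18 SOCS and JAK-STAT members passed, ahead of Socs3 at 0.72 and Socs1 at 0.70. Over all genes 0.212% passed, and 1 of 18 is no result about that list. Gadd45b, an activator of stress kinases, had 1.62 and 1.63, and Rgs16, an inhibitor of G proteins, 1.57 and 1.37.

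Noct (nocturnin) had a mean of 1.40 ± 0.099. Errfi1 (Mig-6), an inhibitor of EGF receptors, had a mean of 1.39 ± 0.11. Of 16 measured MAP kinase phosphatases and receptor-kinase inhibitors Errfi1 alone passed, while Dusp1, the phosphatase often named among first responders, was at -0.31 (mean log2 signal 10.0) and Spry1 at -0.52. Beside the 0.212% of all genes that passed, 1 of 16 is no result about that list. All 8 genes of this group had a lower mean at 4 h than at 1 h, with a group median of 1.69 at 1 h and 0.46 at 4 h. They were chosen as high at 1 h, which by itself favours lower values later.

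Receptors and adhesion proteins of the cell surface made up 4 of the 47 genes. Icam1, the ligand of leukocyte integrins, had 2.29 and 2.39, and a dimmer second probe 0.75. Vcam1, the ligand of integrin alpha-4, had 1.39 and 1.29, and a second probe 0.31. The death receptor Fas had 1.64 and 1.42, and a dim second probe -0.019. Tlr2, the receptor for bacterial lipopeptides, had 1.05 and 1.15. For these 4 genes the median was 1.44 at 1 h, 1.60 at 2 h and 1.22 at 4 h. Of 19 adhesion molecules 2 passed, of 20 death receptors, caspases and BCL2 members 1, and of 11 pattern receptors 1. The share over all genes was 0.212%, and a count of 1 is no result about its list.

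Angptl4, a secreted inhibitor of lipoprotein lipase, had 1.75 and 1.56, then 2.32 and 1.89. Ch25h, which makes 25-hydroxycholesterol, had 1.33 and 1.73, and Tnfaip2 had a mean of 1.37 ± 0.13. Serpina3g, a serine protease inhibitor, had 1.29 and 1.24, then 1.90 and 2.55; it belongs to a cluster of near-identical copies, so its probe may read its relatives too. Of the probes with no symbol in the RefSeq table, LOC547372 had 1.61 and 1.40, and the probe NAP066348-1 had 1.42 and 1.64. Both stood above their 1 h mean at 2 h and at 4 h.

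For lists tied to slower functions of fibroblasts the counts at 1 h were 0 or 1, which at 0.212% of all genes is no result about these lists. None of 26 collagens and other matrix proteins was 2-fold on both arrays. Has1, a hyaluronan synthase, came nearest, with 0.93 and 1.38. None of 26 growth factors passed either, the highest being Vegfa with 1.17 and 0.80. None of 18 prostaglandin, nitric oxide and redox enzymes passed; Ptgs2 (cyclooxygenase-2) was highest at 0.54. Of 25 matrix proteases and inhibitors 1 passed, Serpina3g, and the collagenase Mmp13 and stromelysin Mmp3 were at 0.17 and 0.22, against 0.48 and 0.91 at 4 h. No member of the lists of 15 contractile genes, 18 heat-shock genes, 20 cyclins and Cdk inhibitors or 14 common reference genes was 2-fold different, and the reference genes ran from -0.16 (Rpl13a) to 0.21 (Tfrc). The small list medians change sign with the normalization, so no direction is given for them.

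Besides Has1, Twist2, Egr3, Vegfa, Nfkb2 and Fosl2, the highest genes that passed 2-fold on 1 array only were Plekhf1, an endosomal protein (0.98 and 1.15), Ptx3, a secreted pattern-recognition protein (0.88 and 1.11), Micall2 (0.93 and 1.02) and 1500006F24 (1.15 and 0.78). Twist2, a basic helix-loop-helix factor of mesenchyme, had 1.19 and 0.93. At the inner edge, Bhlhe40 passed with 1.00 on its lower array and Csf1 with 1.03.

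Few mRNAs were lower at 1 h. Zfp503, a zinc finger repressor, had -1.28 and -1.08, a mean of -1.18 ± 0.099, and -0.96 and -0.74 at 2 h and 4 h. Id4, which blocks helix-loop-helix factors from binding DNA, had -1.09 and -1.10, then -0.94 and -0.25. Its second, dimmer probe gave -0.56. On the same list of Id, Hes, Snail and Twist factors, 21 measured, Snai2 (Slug) missed the size rule on 1 array with -0.94 and -1.08, while Snai1 was at 0.59 and Twist2 at 1.06. Id1 at 0.43 and Id3 at 0.37 lay on the other side of 0 from Id4.

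In all, 12 genes (0.054%) had at most -0.5 on both arrays. After Zfp503, Id4 and Snai2 came Irs1, the adaptor of the insulin receptor (-0.73 and -1.21), Taf15, an RNA-binding protein (-1.37 and -0.50), Rgs2, an inhibitor of Gq signalling (-0.53 and -0.98), and Ephb3, an ephrin receptor (-0.72 and -0.78). The protease gene Adamts1 had -0.74 on each array and -1.07 and -0.83 later. Ppp1r3d, Lpar6, Prickle1 and Spry1 completed the group, between -0.52 and -0.64 as means. The distance between the arrays was widest for Taf15, where it reached ± 0.43.

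The size of a ratio depended on how the background was treated, mostly for dim probes. With the scanner software's processed signals, 69 genes (0.311%) were higher and 3 (0.0135%) lower, with all 47 and both lower genes among them. Csf2 moved from 1.64 to 4.44, Cxcl10 from 1.63 to 3.76, Zc3h12a from 1.91 to 3.46, Cxcl2 from 1.87 to 3.36, Ccl20 from 3.82 to 5.12 and Cxcl3 from 1.59 to 2.80. Bright genes moved little, Junb from 1.33 to 1.34, and Ccl2 stayed at 2.72. Of the 23 genes that passed with processed signals only, 16 had a mean log2 signal under 7.5.

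**Figure D4:**
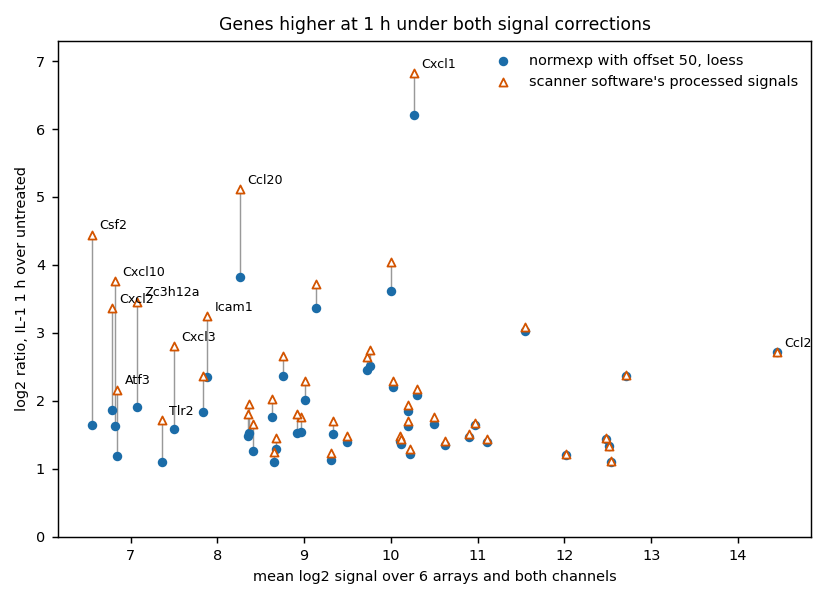
Log2 ratio of IL-1 1 h over untreated of the 47 higher genes against mean log2 signal, with background by normexp (blue circles) and with the scanner software's processed signals (orange triangles), a line joining both values of a gene. Dim genes at the left, such as Csf2 (1.64 and 4.44), lie far apart, and bright genes at the right, such as Ccl2, coincide.

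The genes gained in that way include further inflammatory genes. Sele, the endothelial-type adhesion molecule E-selectin, was at 0.49 in the main values and 2.04 with processed signals. Icosl, a ligand of T cell costimulation, was at 0.37 and 1.96. Cd83 was at 0.51 and 1.74, and Saa3, an acute phase protein, at 0.22 and 1.45. The untreated signal of Sele, Icosl and Saa3 was not well above background on either array, and that of Cd83 on 1, so the sizes are uncertain. Egr3 was at 1.01 and 2.27, the small GTPase Gem at 0.74 and 1.57, and Egr4 at 0.57 and 1.35.

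The last comparison asked which genes stood apart at 1 h from their own later values. With limma, the 1 h ratio was set against the mean of the 2 h and 4 h ratios over all 22209 genes. This fit has 1 residual degree of freedom per gene, which comes from the difference between 2 h and 4 h. It assumes that the 1 h sample varies like the later ones, and the untreated RNA cancels only where it was the same extract on all arrays, which the labels do not say. The residual is thus a change over time and not a spread between replicates, and the test favours genes whose 2 h and 4 h values lie close together. Its p-values cannot show that 1 h differs from later, so only sizes and the order of genes are given. That order sets each difference against the residual and is not an order by size. Nfkbiz, with a difference of 1.77, stood at 2.03 at 2 h and 1.18 at 4 h and ranked behind genes with smaller differences. Separate cultures for the time points are not stated either, so the order holds within these samples and does not carry over to other cultures.

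The 5 genes that ranked first in this fit were transcription factors. The 1 h ratio minus the later mean was 2.33 for Irf1, 2.36 for Nr4a1, 1.60 for Klf10, 1.11 for Bhlhe40 and 1.01 for Junb. On both 1 h arrays each of them was above all 4 later arrays. The same held for other higher genes, Nfkbiz, Tnfaip3 and Egr2 among them, so it does not set the 5 genes apart. They had been seen as higher at 1 h by the size rule, so this is no independent evidence of their rise.

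Which genes passed the threshold of this fit depended on the signal correction and, for Junb, on the fit. Counts of such genes are therefore not given. The differences themselves stayed in the same direction, between 1.74 and 2.42 for Irf1, 2.27 and 2.42 for Nr4a1, 1.46 and 1.71 for Klf10, 0.94 and 1.27 for Bhlhe40, and 0.97 and 1.03 for Junb over 12 alternatives.

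**Figure D5:**
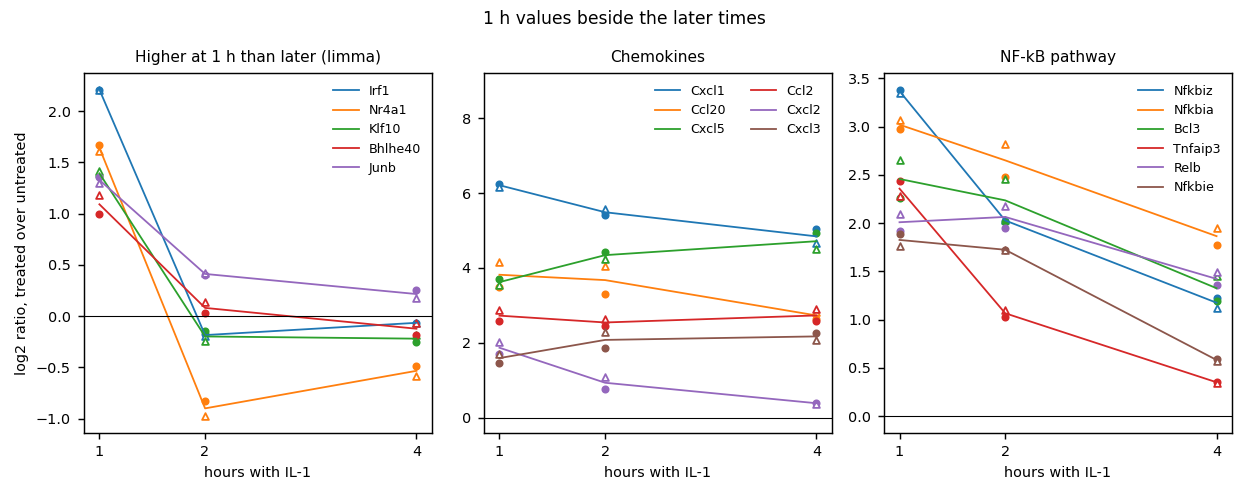
Log2 ratio of treated over untreated at 1, 2 and 4 h for the 5 genes ranked first by the limma fit, for 6 chemokines and for 6 genes of the NF-kB pathway. Circles have treated RNA in Cy5, triangles in Cy3, and lines join the means. The means of the 5 genes are at or below 0.41 from 2 h on, while the means of Cxcl1 and Cxcl5 stay at or above 3.62.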

How the data were processed

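Total RNA was extracted with Trizol and labelled with the Agilent 2-colour Quick Amp kit, per the labels' protocols. Spots were read with Feature Extraction 7.5.1, per the file headers. The intensity columns the authors deposited are mean spot and local background brightness. The processed intensity columns and the p-value given for the log ratio of a spot are the software's, per the file headers. The deposited value table holds log2 ratios; at 1 h its column medians were -0.026 and 0.0261, and with no label for its numerator its direction stays unknown by itself.

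Mean signals were background-corrected with normexp (offset 50) and normalized by loess within arrays with limma 3.58.1 in R 4.3.3. Of 43790 spots per array, 2256 controls and outlier-flagged spots had weight 0 and were left out. Saturated spots were kept. Probes entered if, for untreated RNA or any of the 3 treatments, all arrays showed them well above background in the matching channel (30631 of 41174 probes, 54 dropped for missing values). Each gene took the values of its brightest probe, a choice that arose for 6224 genes. Symbols came from the RefSeq accession (GRCm38.p6 table) for 22072 probes and otherwise from the files. The build of the probe coordinates was not given in the sources used here.

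Arrays of a time point were averaged before the limma fit (lmFit and eBayes, two-sided, Benjamini-Hochberg over all genes). The fit was also run on simulated data with a shift at 1 h only and no change between 2 h and 4 h beyond noise. That run cannot show how the fit treats genes that change between 2 h and 4 h. A bound uses per-channel signals after Aquantile normalization, and it is open to dye bias. The number of arrays limits the precision. Alternatives were other background corrections, offsets, centring, filters, probe rules, sizes and replicates.

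Not every promoter match is reported here. The comparison, gene lists and promoter motifs were chosen with earlier results of these data known. Named were all genes past the size rule, the lowest means among genes at most -0.5 on both arrays, the 10 highest that passed on 1 array only, the ends of each list, the genes past the limma threshold, and known first responders near 0. Genes singled out beyond this rule, such as Fosl1, Cxcl12, Mmp3 and those gained with processed signals, were chosen after their values were seen.

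Same-numbered arrays deviated together from their time means (correlations across genes of 0.781 to 0.855). With 2 arrays per time this mirrors 1 dye effect per gene, since the numbers mark the dye orientation in the labels.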

Additional observations from a re-analysis of the deposited data

Results flagged for a closer look

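For the 5 genes that ranked first in the limma fit, the log2 ratio at 1 h stood above the later means. That fit has 1 sample at 1 h and a residual from the change between 2 h and 4 h, so it cannot test this. The log2 ratio at 1 h minus the mean of 2 h and 4 h was 2.36 for Nr4a1, 2.33 for Irf1, 1.60 for Klf10, 1.11 for Bhlhe40 and 1.01 for Junb. Some of the 47 higher genes were lower than untreated on both arrays of a later time. At 2 h this held for Nr4a1 (-0.90), Klf10 (-0.20) and Irf1 (-0.18). At 4 h it held for Nr4a1 (-0.53), Egr2 (-0.46), Klf10 (-0.22), Bhlhe40 (-0.12), Irf1 (-0.065), Kdm6b (-0.048) and Atf3 (-0.029). The changes of sign were not tested. The values of Kdm6b and Atf3 at 4 h are smaller than the median error over all genes at 1 h (0.0656).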

How the results depend on the processing

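No gene that was called turned its direction in any alternative run. Leaving out 1 array could not turn a gene called by the size rule, since both arrays had the same direction. The value table repeats the processed signals with the arrays of a pair exchanged, so it is no separate check. The counts of higher and lower genes at 1 h, 47 and 2, became 39 and 1 without background correction, 24 and 0 with median centring, 42 and 1 with the mean of a gene's probes, 91 and 7 at 1.5-fold, and 153 and 30 by the scanner's p under 0.01 on both arrays. Single arrays gave 53 to 72 higher and 5 to 16 lower genes. The limma counts of genes higher and lower at 1 h than later, 5 and 0, became 0 and 0 with offset 16, processed signals or the value table, 9 and 2 without background correction, 64 and 29 with median centring, 11 and 1 without a filter on dim probes, 14 and 2 with the mean of probes, and 10 and 2 with a trend and robust fit. Leaving out the arrays of 1 dye orientation gave 8 to 28 higher and 3 to 6 lower. With the replicate number as a block, the pairing by dye orientation, they were 38 and 12; the block adds the 2 arrays of a time point as if they were separate samples. The cause of the moved limma counts was not tested. Scan date as a block was not run, since all arrays were read on the same day. Of 27 list medians, 12 turned sign with median centring, among them those of the collagens (0.092 to -0.048) and of the common reference genes (0.044 to -0.10). Dim signals limit the sizes of Csf2, Cxcl10, Sele, Icosl, Saa3 and Cd83, and saturation limits that of Ccl2.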

Other observations

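On the 1 h arrays, 12 genes were at least 2-fold different on each array in opposite directions, all of them low with treated RNA in Cy5 and high with treated RNA in Cy3. They include ribosomal protein genes (Rplp0 with -1.27 and 1.53, Rps18 with -1.27 and 1.29, Rps2 with -1.12 and 1.30) and the calcium-binding genes S100a4 (-1.27 and 1.52) and S100a6 (-1.27 and 1.54). Their means lay between -0.045 and 0.24. All 12 had a saturated spot on the 1 h arrays and a mean log2 signal from 15.86 to 15.99. The dye-swap rule leaves them out of the 47 and 2 genes.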
